A study of Mus musculus with 6 samples.

Results

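Tumor granulocytes were examined in single-cell RNA sequencing (scRNA-seq) libraries made from mammary tumors of MMTV-PyMT mice, a line in which the mouse mammary tumor virus promoter drives the polyoma middle T oncogene in mammary epithelium. A cell was taken as a granulocyte where it held at least 20 UMIs (unique molecular identifiers, each standing for 1 captured transcript) of S100a8 and S100a9 together, at most 2 of C1qa, C1qb and C1qc, at most 1 of Epcam and 0 of Cd3g, within the limits of 200 to 4000 genes and 25% mitochondrial UMIs. This left 394 granulocytes of 17562 tumor cells within the limits and 24527 deposited tumor barcodes. The tumor source was 10 weeks old, female and carried the transgene; all conditions of a replicate came from 1 source mouse, per the study, so the 3 tumor libraries share an animal, and every sample was minced, digested with type I collagenase, treated with DNase and red cell lysis, and sorted for live cells. The 3 conditions were a control digested for 60 min by conventional means, the cells that the microfluidic platform released in a 15 min interval, and the cells it released afterwards up to 60 min. There was 1 library per condition (240, 90 and 64 granulocytes, in that order), so no difference below has a replicate check, no test between conditions was possible, and every interval is a 95% interval of counting error only, which treats the UMIs of a cell as independent. Kidney libraries came from C57BL/6 mice of 12 weeks, male, processed under the same 3 conditions.

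Granulocytes are short-lived white cells of the bone marrow lineage, of which neutrophils are by far the most common kind. Neutrophils store microbicidal proteins in granules that are filled at successive steps of their maturation, sense bacterial products and chemoattractants through surface receptors, and release chemokines and interleukin-1 that call in further leukocytes. In tumors they are known for both growth-promoting and tumor-restraining roles.

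The members carried the genes of a neutrophil. The rule used S100a8 and S100a9, the 2 chains of calprotectin, so their level is a description (GRCm38, chromosome 3, 90668978 to 90670035 and 90692632 to 90695721). S100a9 stood at 86956 UMIs per 1000000 (CPM) of all granulocyte UMIs in the control, 102606 in the 15 min interval and 66919.9 in the 60 min interval. Of the genes that the rule did not name, Retnlg (chromosome 16, 48872621 to 48874496), Wfdc21, Hdc (the enzyme that makes histamine), Stfa2l1, BC100530, Acod1 (the itaconate-making enzyme), Saa3, Clec4e (the receptor Mincle), Trem1, Csf3r (the G-CSF receptor), Cxcr2 (the receptor for Cxcl1 and Cxcl2) and Il1r2 were among the 20 that led the ratio over the other tumor cells. Stfa2l1, BC100530 and Gm5483 belong to a family of near-identical stefin genes between which reads can be split, so their single values are uncertain. At least 1 UMI of 6 such genes (Retnlg, Hdc, Clec4e, Csf3r, Cxcr2, Il1r2) was held by 239 of 240, 89 of 90 and 63 of 64 members. Some were also seen in Ly6c2 monocytes (defined below): Clec4e in 79.3%, 64% and 69.7%, Csf3r in 48.3%, 24% and 51.5%, and Il1r2 in 37.9%, 4% and 24.2%. Retnlg was seen in 0% of these monocytes in each library, Cxcr2 in at most 3.45% and Hdc in at most 16%. Mmp8, another neutrophil gene, was seen in more monocytes (27.6%, 40% and 18.2%) than members (10%, 13.3% and 6.25%).

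Detection of these genes stood far above free RNA. Retnlg was seen in 41.7% of control granulocytes, 37.8% of those of the 15 min interval and 40.6% of those of the 60 min interval, against 1.09%, 0.206% and 0.0800% of tumor epithelial cells, whose median depth was 8774, 9902 and 9415 UMIs against 2020.5, 1797.5 and 2046 in the granulocytes. Hdc was seen in 90.8%, 81.1% and 82.8% of granulocytes and in at most 0.311% of epithelial cells. Ly6g, the surface antigen used to sort mouse neutrophils, was seen in 10.0%, 6.67% and 3.12% of members, and in 0.0311%, 0% and 0% of epithelial cells. S100a9 itself was seen in 14.6% of epithelial cells of the control, 3.06% of those of the 15 min interval and 1.12% of those of the 60 min interval. S100a8, the other gene that the rule sums, was seen in 24.7%, 16.3% and 22.3% of them.

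Genes of other leukocytes and of red cells were low, while genes of tumor epithelium were seen in most members. The eosinophil genes Epx, Prg2 and Il5ra, the mast cell and basophil genes Mcpt8, Cpa3, Fcer1a and Ms4a2, and the B cell genes Cd79a, Cd79b and Ms4a1 had 0 UMIs in the members of all 3 libraries. Of the other genes of these lists, the eosinophil gene Siglecf, which tumor neutrophils are also known to express, had 34, 11 and 12 UMIs (58.7, 55.8 and 68.6 CPM), and the 2 that remained had at most 3 UMIs in any library. The macrophage list (5 genes) summed to between 507 and 629 CPM in granulocytes against 57724 to 73905 CPM in C1q macrophages (cells with at least 10 UMIs of the 3 C1q genes and S100, Epcam and Cd3g UMIs below the limits), the dendritic cell list (5 genes) to between 244 and 280.3 CPM, the monocyte list (5 genes) to between 109 and 259 CPM, the T cell list (4 genes) to between 24.2 and 50.7 CPM and the red cell list (4 genes) to at most 3.46 CPM. Tumor epithelial genes (6 genes) summed to 1427, 1543 and 818 CPM. At least 1 of their UMIs was present in 92.5%, 93.3% and 76.6% of members, and more than 2 in 139, 49 and 17 members. The endothelial list (3 genes) reached 521 CPM in the 60 min interval, of which 3 cells held 98.9%, and the fibroblast list (3 genes) reached 346 CPM in the control, of which 3 cells held 96.5%. More than 2 endothelial and fibroblast UMIs were present in 6, 0 and 3 members, and the part of these cells in the results was not tested except where a value without them is given.

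Granulocytes made up 4.18% of the control cells (3.68 to 4.73), 1.55% of the cells of the 15 min interval (1.25 to 1.90) and 1.06% of those of the 60 min interval (0.819 to 1.35). The control share lay above both platform shares with no overlap of the intervals, and the platform shares overlapped each other narrowly. The ratio to control was 0.371 (0.292 to 0.471) for the 15 min interval and 0.254 (0.193 to 0.334) for the 60 min interval, and the 60 min share was 0.685 times the 15 min share (0.498 to 0.942). Among leukocytes (granulocytes together with cells that held at least 1 UMI of Ptprc, the pan-leukocyte antigen CD45, and at most 1 of Epcam), which were 25.1%, 20.3% and 30.4% of the cells, granulocytes took 16.7% (14.8 to 18.7), 7.65% (6.20 to 9.32) and 3.50% (2.70 to 4.44). Here all 3 intervals were separate, and the 60 min interval held 0.457 times the share of the 15 min interval (0.334 to 0.624). A weighted sum of the interval shares, with weights of 1 and 1.5 for the relative cell yield that the study used, was 0.752 times the control share (0.614 to 0.920). The sum was not divided by the total weight. It therefore estimates granulocyte yield relative to the control, and is not the granulocyte share of the pooled platform cells.

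**Figure D1:**
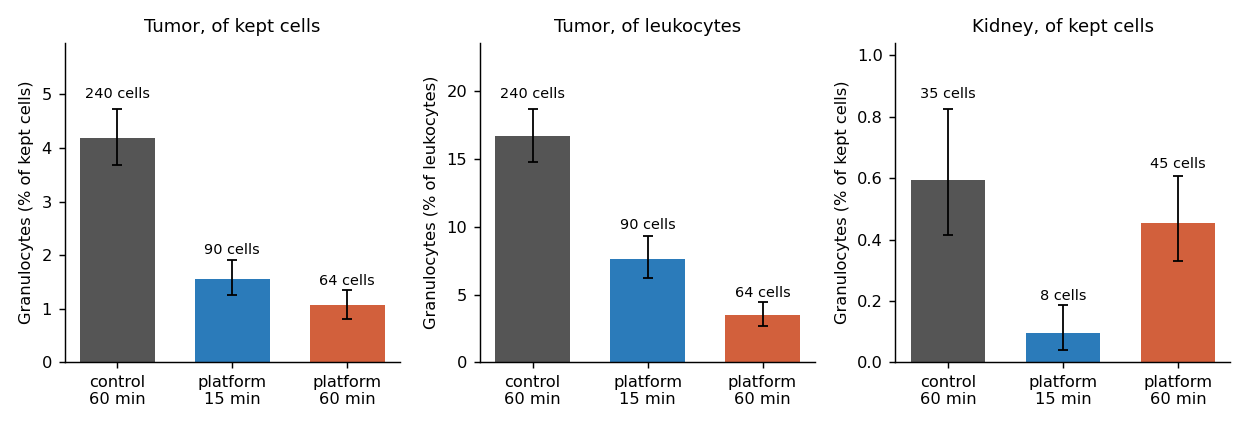
Bars give granulocytes as a percentage of kept tumor cells (left), of tumor leukocytes (middle) and of kept kidney cells (right) in each library, on axes that start at 0, with exact binomial 95% intervals and the number of granulocytes above each bar. In tumor the control bar (4.18% of cells) is above the platform bars (1.55% and 1.06%), and in kidney the 15 min bar (8 cells) is the lowest.

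The share depended on how epithelial transcripts in a granulocyte were handled. With members limited to at most 2 UMIs of the 6 epithelial genes, the ratio for the 60 min interval was 0.443 rather than 0.254, and that among leukocytes was 0.361 rather than 0.210. With cells of at most 1 Epcam UMI as the denominator, the ratios were 0.497 for the 15 min interval and 0.184 for the 60 min interval. All settings tried left both platform shares below the control. Through Epcam the rule removed a larger share of the S100-rich cells of the platform libraries (22 of 112 and 29 of 94) than of the control (33 of 279). Just below the threshold, 24 cells held 10 to 19 UMIs of S100a8 and S100a9, and 22 of them held at least 3 UMIs of the 6 further granulocyte genes; just above it, 29 cells held 20 to 29 UMIs, of which 26 did so.

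In kidney, where cells had 200 to 3000 genes and at most 50% mitochondrial UMIs, the same UMI rule found 35, 8 and 45 granulocytes, which was 0.595% (0.415 to 0.826), 0.0954% (0.0412 to 0.188) and 0.453% (0.331 to 0.606) of kept cells. The 15 min interval was the lowest of the kidney shares, and the control and the 60 min interval overlapped. Tumor and kidney differed in strain, sex and age and were aggregated separately, so their levels are set side by side and not compared.

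The granulocytes carried little RNA. Their median depth was 2020.5 UMIs in the control, 1797.5 in the 15 min interval and 2046 in the 60 min interval, against 8210.5, 9228 and 9476 over all kept tumor cells, and their median number of genes was 749.5, 744 and 722. Mitochondrial UMIs had medians of 0.707%, 0.758% and 0.926%. Summed over members, 578789, 197054 and 174806 UMIs were available. No barcode was shared between libraries among the granulocytes, and 16 to 21 were among all tumor cells of each pair of libraries.

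Of 1081 genes with at least 100 granulocyte UMIs, 46 (4.26%) were at least 2-fold higher in the 15 min interval than in the control and 150 (13.9%) at least 2-fold lower, with 10 CPM added to both, 18.1% in all. For the 60 min interval the counts were 57 higher (5.27%) and 54 lower (5%), 10.3% in all. The counts and their balance moved with the cells and genes used. At 60 min they were 26 higher and 44 lower with at most 2 endothelial and fibroblast UMIs, 31 and 51 with each cell at equal weight, 57 and 31 with at most 2 epithelial UMIs, and 30 and 14 for genes with at least 300 UMIs. At 15 min they were 26 and 92 with at most 2 epithelial UMIs and 20 and 54 for genes with at least 300 UMIs. Over all 1081 genes the median log2 ratio was -0.08 for the 15 min interval and -0.14 for the 60 min interval. Between the platform intervals, 150 genes (13.9%) were at least 2-fold higher at 60 min than at 15 min and 84 (7.77%) lower. Both platform intervals were read against the same control, so their values are given side by side.

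Immediate early genes, which are transcribed within minutes of a stimulus without new protein, had their highest summed level in the 15 min interval. The 15 genes of this list summed to 13164 CPM in the control, 34255 CPM in the 15 min interval and 22230.4 CPM in the 60 min interval, that is 2.60 times (2.52 to 2.69) and 1.69 times (1.62 to 1.76) the control. In the 15 min interval 8 of the 15 were at least 2-fold higher and 0 lower, against 4.26% and 13.9% of all 1081 genes. The median log2 ratio was 1.19. In the 60 min interval 6 were higher and 0 lower, against 5.27% and 5% of all genes, with a median of 0.73. At 60 min 3 cells held 25.6% of the UMIs of the list. In C1q macrophages of the same libraries the list stood at 2.77 and 2.18 times the control.

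Fos, a subunit of the AP-1 transcription factor (chromosome 12, 85473890 to 85477273), was at 444 CPM in the control (391 to 502), 3400.1 CPM in the 15 min interval (3147 to 3668) and 1470.2 CPM in the 60 min interval (1296 to 1661). The 15 min level was 7.66 times the control (6.62 to 8.88). The median granulocyte of the 15 min interval held 26.3 Fos UMIs per 10000 UMIs of the cell, while the median cell of the other libraries held 0. In the 60 min interval 3 cells held 75.5% of the Fos UMIs, and the log2 ratio to control was 0.99 without members that held more than 2 endothelial and fibroblast UMIs, against 1.70 with them. At 15 min it was 3.68 without them and 2.91 with them. Egr1, a zinc finger transcription factor, was at 168, 1517 and 566 CPM. It was 9.05-fold higher in the 15 min interval (7.18 to 11.5). At 60 min 3 cells held 52.5% of its UMIs. Ier2 (479, 2273 and 744 CPM), Junb (4017, 9195 and 5097 CPM), Btg2 (1446, 3395 and 1585 CPM) and Klf2 (724, 2279 and 1087 CPM) had the same order, highest at 15 min.

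Other genes of the list were high in both platform intervals. Zfp36, which encodes tristetraprolin, a protein that destabilizes cytokine mRNAs (chromosome 7, 28376784 to 28380253), was at 494 CPM in the control (439 to 555), 2654 CPM in the 15 min interval (2431 to 2892) and 2328 CPM in the 60 min interval (2108 to 2566). The platform levels lay close together, 5.37 and 4.71 times the control. Dusp1, a phosphatase that turns off MAP kinases, was at 933, 3091 and 2357 CPM. Atf3 had another pattern, at 279.9 CPM in the control, 274 CPM at 15 min and 1196 CPM at 60 min, where 3 cells held 40.7% of its UMIs. Fosb (88.1, 91.3 and 217 CPM, with 81.6% of the 60 min UMIs in 3 cells) and Nr4a1 (294, 294 and 481 CPM) were likewise near the control at 15 min and highest at 60 min. Jun (684, 1086 and 904 CPM) and Jund (1453, 1558 and 1407 CPM) stayed within 2-fold.

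**Figure D2:**
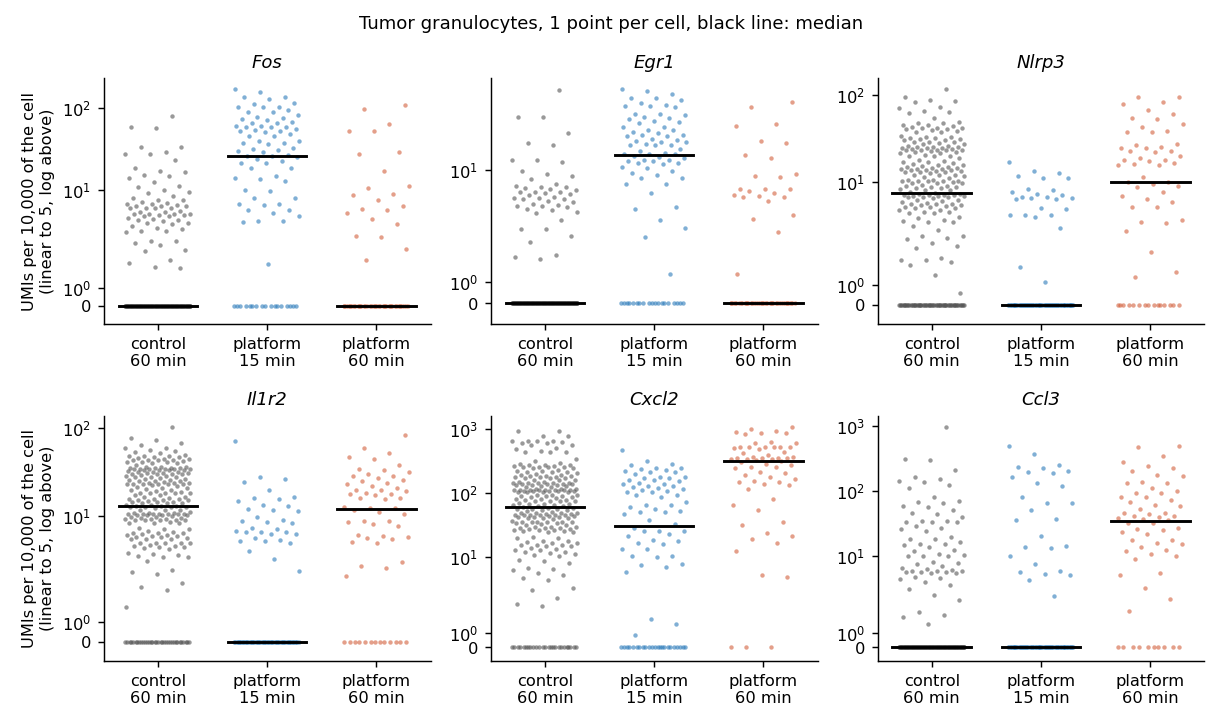
Each point is 1 tumor granulocyte, placed by the UMIs of the gene per 10000 UMIs of the cell (vertical axis, linear up to 5 and logarithmic above), with libraries side by side and the median as a black line. The medians of Fos (26.3) and Egr1 (14.5) are above 0 only in the 15 min interval, those of Nlrp3 and Il1r2 are 0 only there, and the medians of Cxcl2 (311) and Ccl3 (33.8) are highest in the 60 min interval.

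Osm, Ptgs2, Oser1 and Cebpd were also high in both platform intervals. Osm, a cytokine of the interleukin-6 family, was at 62.2 CPM in the control (43.6 to 86.1), 721 CPM at 15 min (607 to 849) and 498 CPM at 60 min (399 to 614). It was seen in 10.0%, 27.8% and 28.1% of granulocytes and in 0.560%, 0.592% and 0.960% of epithelial cells, and in 5.58%, 22.5% and 25.8% of granulocytes thinned to 1000 UMIs. Ptgs2, the inducible cyclooxygenase, was at 266, 919 and 1241 CPM, 3.45 times the control at 15 min (2.77 to 4.31) and 4.67 times at 60 min (3.78 to 5.77). Cebpd, a transcription factor of the C/EBP family, was at 399, 1132 and 824 CPM, whereas its relative Cebpb was at 8110.0, 4314 and 6968 CPM. Oser1 was at 173, 792 and 795 CPM, with platform levels 4.58 and 4.60 times the control. With Ptgs2 in it, the eicosanoid list (6 genes) stood at 1.85 and 1.53 times the control.

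The summed level of interleukin-1 regulators was low in the 15 min interval, by way of Il1r2, Il1rn and Nlrp3. The 7 genes of the list summed to 4584 CPM in the control, 1588 CPM at 15 min and 4628 CPM at 60 min, so that the 15 min level was 0.347 times the control (0.307 to 0.390) and the 60 min level 1.01 times (0.932 to 1.09). Of the 5 genes with at least 100 UMIs, 3 were at least 2-fold lower at 15 min and 0 at 60 min. Over all 1081 genes the shares were 13.9% and 5%. The median log2 ratios of the list were -1.52 and -0.26. Il1r2, the decoy receptor that binds interleukin-1 without signaling (chromosome 1, 40074079 to 40125231), was at 1571 CPM (1470.1 to 1676), 350.2 CPM (272 to 443) and 1310.0 CPM (1146 to 1491), 4.49-fold lower at 15 min (3.51 to 5.82). Il1rn, the secreted receptor antagonist, was at 1158, 396 and 1264 CPM, 2.92-fold lower at 15 min (2.31 to 3.75). Nlrp3, the inflammasome sensor (chromosome 11, 59541568 to 59566956), was at 1253 CPM (1163 to 1347), 183 CPM (128 to 253) and 1590.3 CPM (1409 to 1789), 6.86-fold lower at 15 min (4.91 to 9.87).

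For Nlrp3 the control and the 60 min interval were the high libraries and the 15 min interval the low one, as for Il1r2 and Il1rn. With every cell thinned to 1000 UMIs, Nlrp3 was seen in 58.8%, 18.0% and 67.7% of granulocytes, against 73.8%, 28.9% and 76.6% unthinned and at most 1.31% of epithelial cells. Thinning left out 7, 1 and 2 granulocytes. Casp4, a caspase of the same pathway, was at 301, 264 and 246 CPM and did not share the pattern. Casp1, Il1rap and Il18rap, also of the list, were at or above the control level at 15 min.

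Genes of NF-kB feedback, which NF-kB induces and whose products restrain or tune it, were also low at 15 min. The list of 8 summed to 11274, 6577 and 15234 CPM, 0.583 times the control at 15 min (0.549 to 0.619) and 1.35 times at 60 min (1.29 to 1.41). At 15 min 4 of 8 were at least 2-fold lower and 0 higher, against 13.9% and 4.26% of all genes. The median log2 ratio was -1.16. At 60 min 0 of 8 passed in either direction, with a median of -0.37. Nfkbie was at 279.9, 55.8 and 160.2 CPM, 5.01-fold lower at 15 min (2.73 to 10.2). Rel, a subunit of NF-kB itself, was at 297, 45.7 and 189 CPM, 6.51-fold lower at 15 min (3.35 to 14.5). Tnfaip3, which encodes the ubiquitin-editing enzyme A20, was at 515, 167 and 652 CPM. Nfkbia, the most abundant of the list, was at 6659, 4100.4 and 11309.7 CPM and carried most of the summed level.

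Other genes with a low 15 min level were Sod2, the mitochondrial superoxide dismutase, at 892, 55.8 and 463 CPM (16-fold lower at 15 min, 8.85 to 32.2), Icam1, an adhesion molecule, at 624, 101 and 538 CPM (6.15-fold lower, 3.92 to 10.2, with 55.3% of the 60 min UMIs in 3 cells), Acod1 at 1757, 284 and 1802 CPM (6.18-fold lower, 4.72 to 8.24) and Bcl2l11, the proapoptotic protein Bim, at 380.1, 91.3 and 183 CPM. Bcl2a1b, an antiapoptotic relative of Bcl2, was at 859, 152 and 601 CPM, a value that near-identical copies of the gene make uncertain. Mcl1, the main survival factor of neutrophils, was at 2633, 3065 and 2488 CPM. Of the 5 survival and apoptosis genes with at least 100 UMIs, 3 were at least 2-fold lower at 15 min and 1 at 60 min. Their median log2 ratios were -1.04 and -0.08. The shares of all genes that were lower were 13.9% and 5%.

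**Figure D3:**
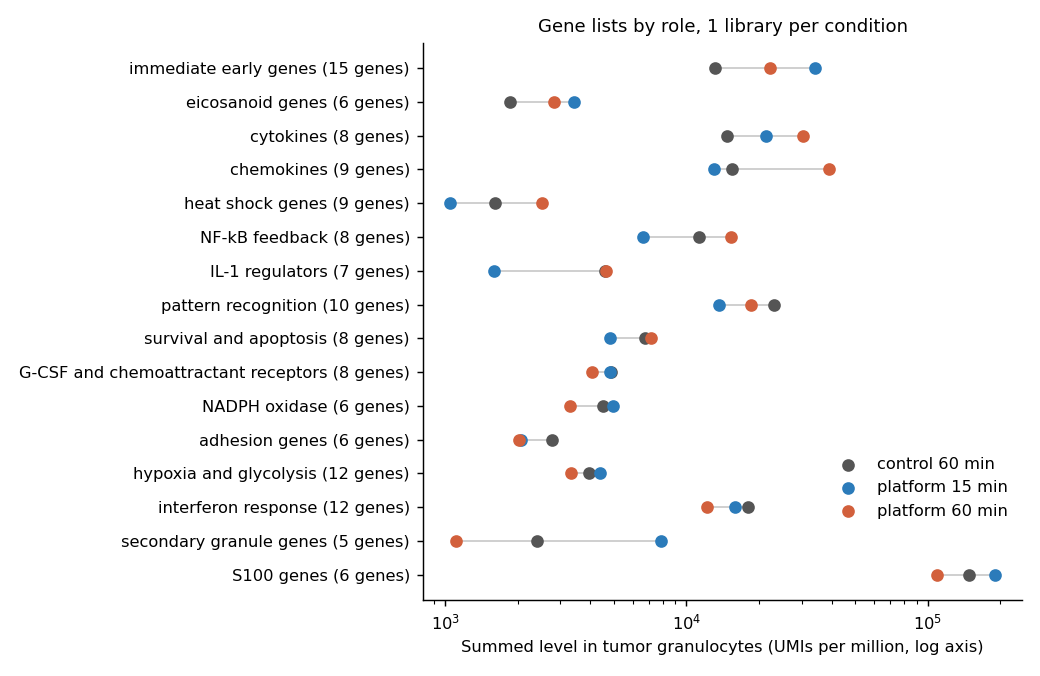
Each row is a gene list and each point the summed level of its genes in the granulocytes of 1 library, in CPM on a logarithmic axis. The 15 min point is the highest for immediate early genes (34255) and the lowest for interleukin-1 regulators (1588) and NF-kB feedback (6577), and the 60 min point is the highest for chemokines (39078) and cytokines (30514). The S100 list holds the 2 genes of the selection rule.

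Chemokines and cytokines were highest in the 60 min interval. The chemokine list (9 genes) summed to 15392, 13047 and 39078 CPM, 0.848 times the control at 15 min (0.811 to 0.886) and 2.54 times at 60 min (2.46 to 2.62). Of the 7 with at least 100 UMIs, 0 were at least 2-fold higher and 3 lower at 15 min. At 60 min 4 were higher and 1 lower, and the median log2 ratios were -0.67 and 1.10. Over all genes 4.26% were higher and 13.9% lower at 15 min, and 5.27% and 5% at 60 min. Cxcl2, a ligand of Cxcr2 that draws in neutrophils (chromosome 5, 90903871 to 90905938), was at 10560.0 CPM (10297 to 10828), 6633 CPM (6278 to 7002) and 27264 CPM (26496 to 28049.8). The 60 min level was 2.58 times the control (2.49 to 2.68) and 4.11 times the 15 min level (3.87 to 4.37).

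Cxcl2 UMIs per 10000 had a median over cells of 60.0 (control), 30.5 (15 min interval) and 311 (60 min interval), so the medians had the same order as the sums. Ccl3, a chemokine that draws in leukocytes (chromosome 11, 83647844 to 83649355), was at 1417 CPM (1321 to 1517), 2537 CPM (2319.8 to 2769.8) and 5801 CPM (5449 to 6169). It was seen in 29.6%, 32.2% and 84.4% of granulocytes and in 2.86%, 5.33% and 10.4% of epithelial cells; after thinning the shares were 22.3%, 28.1% and 75.8% against 0.408%, 0.956% and 1.37%. At 15 min, unlike at 60 min, most cells had no Ccl3 UMI and 3 cells held 37.2% of the total. Ccl4 followed with 2168, 3141 and 4645 CPM. Cxcl1, another Cxcr2 ligand, was at 273, 81.2 and 789 CPM, and 3 cells held 60.1% of its UMIs in the 60 min interval and 100.0% in the 15 min interval.

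The cytokine list (8 genes) summed to 14769, 21359.6 and 30514 CPM, of which interleukin-1 beta was the greater part. Il1b was at 13188 CPM (12894 to 13487), 19568 CPM (18955 to 20196) and 27305 CPM (26535 to 28090.4), 1.48 and 2.07 times the control, and was seen in at least 94.4% of granulocytes and at most 13.8% of epithelial cells of each library. Tnf was at 669, 340.0 and 1419 CPM. Il1a, the other interleukin-1 (chromosome 2, 129299610 to 129309972), was at 278 CPM with 161 UMIs, 15.2 CPM with 3 UMIs and 566 CPM with 99 UMIs, 18.3-fold lower than the control at 15 min (6.14 to 89.5), and 3 cells held 55.6% of its UMIs at 60 min. Among cytokines with at least 100 UMIs, Il1a thus had the lowest 15 min level relative to control, while Il1b was above control in both intervals. Of the 6 cytokines with at least 100 UMIs, 4 were at least 2-fold higher at 60 min and 0 lower. At 15 min it was 1 higher and 1 lower. The median log2 ratio was 1.02 at 60 min and 0.35 at 15 min. Shares of all genes were 5.27% higher and 5% lower at 60 min, and 4.26% and 13.9% at 15 min.

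Promoters of genes from the 3 patterns are printed here, as the 250 bases before the start site that RefSeq annotates (GRCm38.p6), read 5′ to 3′ on the strand of the gene, to set the sequence beside the levels. The table lists more than 1 start for some genes (32851 starts for 27025 genes), and the first listed was used. Those shown were picked from the lists because they hold a match to at least 1 of 4 motifs, with the match in capitals. The motifs were the CArG box of serum response factor, the cAMP response element TGACGTCA, the AP-1 site TGANTCA and the NF-kB site, searched on both strands in 300 bases (250 before and 50 after the start). Zfp36 (chr7:28379229-28379478, minus strand) has a CArG box 58 bases before the start, in a window that lies inside the gene span given above, and Btg2 (chr1:134079156-134079405, minus strand) a cAMP response element 166 bases before it, both from the genes high at 15 min. Zfp36 was high at 60 min as well. Cxcl1 (chr5:90890995-90891244, plus strand) and Cxcl2 (chr5:90903649-90903898, plus strand), both highest at 60 min, have NF-kB matches that overlap by all but 1 base, from 71 and from 97 bases before the start. Nfkbie (chr17:45555450-45555699, plus strand), with an AP-1 match at 156 and an NF-kB match at 106 bases before the start, and Rel (chr11:23770970-23771219, minus strand), with overlapping NF-kB matches from 92 bases before it, were lowest at 15 min.
Zfp36: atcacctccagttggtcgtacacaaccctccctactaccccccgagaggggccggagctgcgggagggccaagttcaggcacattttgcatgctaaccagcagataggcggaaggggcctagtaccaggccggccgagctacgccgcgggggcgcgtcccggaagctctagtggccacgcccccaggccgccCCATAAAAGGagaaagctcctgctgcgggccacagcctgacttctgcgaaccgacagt
Btg2: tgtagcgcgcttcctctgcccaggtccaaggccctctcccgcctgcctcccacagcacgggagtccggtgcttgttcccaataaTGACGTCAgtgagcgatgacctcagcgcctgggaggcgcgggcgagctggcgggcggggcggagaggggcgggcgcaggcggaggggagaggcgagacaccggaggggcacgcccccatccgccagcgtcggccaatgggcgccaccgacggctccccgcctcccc
Cxcl1: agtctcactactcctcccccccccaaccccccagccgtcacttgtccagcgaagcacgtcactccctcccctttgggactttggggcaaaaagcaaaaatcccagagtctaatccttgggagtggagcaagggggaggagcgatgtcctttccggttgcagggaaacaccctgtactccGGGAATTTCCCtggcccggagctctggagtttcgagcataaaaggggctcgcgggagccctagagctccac
Cxcl2: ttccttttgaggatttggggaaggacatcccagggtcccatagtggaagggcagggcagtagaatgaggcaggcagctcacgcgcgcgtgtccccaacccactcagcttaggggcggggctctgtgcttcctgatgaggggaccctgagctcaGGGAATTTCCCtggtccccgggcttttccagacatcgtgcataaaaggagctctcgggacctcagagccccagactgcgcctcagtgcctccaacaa
Nfkbie: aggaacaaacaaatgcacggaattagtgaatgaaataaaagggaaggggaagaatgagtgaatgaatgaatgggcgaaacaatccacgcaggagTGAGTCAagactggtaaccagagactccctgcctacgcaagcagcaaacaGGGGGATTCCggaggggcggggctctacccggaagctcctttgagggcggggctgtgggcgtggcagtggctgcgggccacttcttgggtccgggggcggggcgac
Rel: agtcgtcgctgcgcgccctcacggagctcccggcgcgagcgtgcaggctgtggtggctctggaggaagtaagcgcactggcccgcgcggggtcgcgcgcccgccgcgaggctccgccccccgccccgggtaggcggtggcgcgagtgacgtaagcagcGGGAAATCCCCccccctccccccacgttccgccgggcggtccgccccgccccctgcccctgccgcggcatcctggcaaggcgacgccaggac

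Over the lists, an NF-kB match was found in 5 of 7 chemokine promoters (Cxcl1, Cxcl2, Cxcl3, Ccl9, Cxcl10), 6 of 7 NF-kB feedback promoters, 3 of 6 cytokine promoters, 1 of 7 promoters of interleukin-1 regulators and 4 of 13 immediate early promoters, against 8.18% of all 27025 promoters in the table. A CArG box was found in 1 of the 13 immediate early promoters (Zfp36) and a cAMP response element in 2 (Dusp1 and Btg2), against 1.57% and 1.88% of all promoters. AP-1 matches, found in 7.93% of all promoters, were in 0 of 13 immediate early promoters, 2 of 7 chemokine, 2 of 7 NF-kB feedback, 2 of 6 cytokine and 1 of 7 interleukin-1 regulator promoters. The NF-kB feedback list was chosen as genes that NF-kB induces, so its rate of NF-kB matches is no independent evidence. A match describes the letters of the window and is not a binding site.

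The pattern recognition list (10 genes) had a lower sum in the 15 min interval. It holds sensors of microbial products and the Fc receptor genes Fcer1g, Fcgr3 and Fcgr4. The sums were 23100.0, 13651 and 18426 CPM, 0.591 and 0.798 times the control. Of 8 genes with at least 100 UMIs, 3 were at least 2-fold lower at 15 min and 1, Fcgr3, higher. Over all genes 13.9% were lower and 4.26% higher. In the list 0 passed at 60 min, and the median log2 ratios were -0.70 and -0.32. Fcer1g was near its control level at 15 min. Cd14, the co-receptor for lipopolysaccharide, was at 12333, 5993 and 9788 CPM. Clec4e (chromosome 6, 123281789 to 123289870) was at 3981, 1954 and 3535 CPM and its neighbor Clec4d at 1748, 594 and 1098 CPM, 2.94-fold lower than the control at 15 min (2.43 to 3.60). Tlr2 was at 558, 274 and 389 CPM.

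Receptors for G-CSF and chemoattractants stood near the control level. The list of 8 summed to 4843, 4811 and 4062 CPM, 0.993 times the control at 15 min (0.922 to 1.07) and 0.839 times at 60 min (0.771 to 0.911). C5ar1, the receptor for complement C5a, was the 1 gene at least 2-fold lower at 15 min, at 1090.2, 452 and 772 CPM. Across all genes the share that was lower was 13.9%. Csf3r was at 1045, 1091 and 904 CPM and Cxcr4, the receptor that holds neutrophils in marrow, at 522, 421 and 584 CPM. Cxcr2 was at 532 CPM (474 to 595), 974 CPM (841 to 1122) and 349 CPM (267 to 448), with separate intervals in all 3 libraries and the highest level at 15 min, the reverse of its ligand Cxcl2.

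NADPH oxidase genes (6 genes), the source of the oxidative burst, summed to 4511, 4938 and 3295 CPM. Ncf1 was the 1 member at least 2-fold lower at 15 min (574, 228 and 452 CPM), against 13.9% of all genes. Cyba was at 1251, 1325 and 789 CPM. Adhesion genes (6 genes) were at 0.746 and 0.725 times the control. Genes of hypoxia and glycolysis (12 genes) were at 1.11 and 0.839 times the control. The tumor neutrophil list (12 genes, among them Cd274, Vegfa, Arg1 and Hilpda) was at 0.920 and 1.10 times, with 1, 2 and 2 of its genes at 0 UMIs; Hilpda, a lipid droplet protein, was at 301, 122 and 97.3 CPM. Transcription factors of the lineage (8 genes) were at 0.709 and 0.918 times, with Cebpb as their most abundant member.

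Heat shock genes (9 genes) summed to 1603, 1045 and 2517 CPM, and 3 cells held 69.3% of the 60 min level. Without members that held more than 2 endothelial and fibroblast UMIs the log2 ratio of the 60 min interval to control was -0.12, against 0.65 with them, and that of the 15 min interval -0.06 against -0.62. Hspa8 was at 428, 365 and 1189.9 CPM, 3 cells holding 76.4% at 60 min. The 12 stress response genes that the study singled out in these and the kidney samples, a choice that makes them no independent evidence, overlap the immediate early genes and summed to 10755, 19289 and 16224 CPM, 1.79 times the control at 15 min (1.72 to 1.87) and 1.51 times at 60 min (1.44 to 1.58). Of its 11 genes with at least 100 UMIs, 3 were at least 2-fold higher and 1 lower at 15 min. At 60 min 5 were higher and 0 lower, and the median log2 ratios were 0.05 and 0.69. Over all genes 4.26% were higher and 13.9% lower at 15 min, and 5.27% and 5% at 60 min. In the 60 min interval 3 cells held 30.1% of the UMIs of the list. In C1q macrophages the list was at 1.99 and 1.95 times the control.

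Camp, Ngp and, at 15 min, Ltf, 3 genes of the secondary granules, were mostly held by a handful of cells. Genes of the primary granules, which are transcribed in marrow precursors (Mpo, Elane, Prtn3, Ctsg), summed to 5.18 CPM in the control (3 UMIs) and 0 in both platform intervals. Camp, the cathelicidin of secondary granules (chromosome 9, 109847379 to 109849617), was at 69.1, 1644 and 0 CPM, and Ngp (chromosome 9, 110419747 to 110423012) at 240.2, 2913 and 0 CPM. In the 15 min interval 3 cells held 100.0% of the Camp UMIs and 97.2% of the Ngp UMIs. Lactoferrin (Ltf) was at 63.9, 649.6 and 74.4 CPM, with 88.3% of the 15 min UMIs in 3 cells. Members with more than 4 UMIs of Camp, Ngp and Ltf numbered 3, 5 and 1. Without them the log2 ratio of the secondary granule list (5 genes) at 15 min was -0.93, against 1.71 with them, so its direction turned. Lcn2, another granule protein, was at 1939, 2558 and 1001 CPM, with 27.1%, 58.5% and 37.1% of the UMIs in 3 cells. Genes of the gelatinase granules (5 genes), made last, were at 596, 1076 and 469 CPM and spread over more cells, with 16.8%, 35.8% and 18.3% of the UMIs in 3 cells and Mmp9 at 287, 447 and 309 CPM. The cell cycle list (6 genes) was at 96.8, 101 and 217 CPM, and 3 cells held 68.4% of the 60 min level.

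Interferon response genes were highest in the control. The list of 12 summed to 18048, 15929.6 and 12196 CPM, 0.883 times the control at 15 min (0.848 to 0.919) and 0.676 times at 60 min (0.645 to 0.708), and most of this sum was Ifitm1 (8988 CPM in the control), Ifitm2 (5036 CPM) and Ifitm3 (1757 CPM). Of the list, 8 genes had at least 100 UMIs. At 15 min 1 of these was at least 2-fold lower and 0 higher, against 13.9% and 4.26% of all genes. The median log2 ratio was -0.30. At 60 min 4 were lower and 0 higher, against 5% and 5.27%. The median there was -1.01, which was the same with Ifit1 set at its floor. Rsad2, the antiviral protein viperin (chromosome 12, 26442746 to 26456452), was at 546, 25.4 and 11.4 CPM (316, 5 and 2 UMIs), and 3 cells held 62.0% of the control UMIs. Ifit1 was at 211, 147 and 0 CPM (122, 29 and 0 UMIs), with 71.3% of the control UMIs in 3 cells, and Cxcl10 at 318, 127 and 45.8 CPM, with 58.7% in 3 cells. Isg15 was at 917, 497 and 446 CPM, with 31.8% of the control UMIs in 3 cells. Ifnar1, a chain of the type I interferon receptor and no member of the list, was at 176 CPM in the control, with 11.8% of its UMIs in 3 cells, 30.4 CPM at 15 min (6 UMIs) and 22.9 CPM at 60 min (4 UMIs). Ifi27l2a, an interferon-induced gene that is likewise outside the list, was at 605, 137 and 120.1 CPM.

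Several of the genes with the most extreme ratios had nearly all of their UMIs in 3 cells. Fabp4, Tm4sf1, Gng11 and S100a10 were among the 8 highest of the 60 min interval, at 1133, 612, 538 and 360.4 CPM against 17.3, 57.0, 55.3 and 57.0 CPM in the control, and 3 cells held between 96.8% and 100.0% of each. Without members that held more than 2 endothelial and fibroblast UMIs, Tm4sf1, Gng11 and S100a10 turned below the control, with log2 ratios of -1.10, -0.24 and -1.08. Serpine2, Col1a1 and Sparc were among the 8 lowest of the 15 min interval, at 214, 171 and 365 CPM in the control with 88.2% to 100.0% in 3 cells, and 0, 0 and 15.2 CPM at 15 min. Without those members Sparc turned above the control at 15 min, at 0.26. Gm26917 (411, 15.2 and 406 CPM) and the stefin gene Stfa3 (162, 5.07 and 212 CPM) were also among the lowest at 15 min, and 3 cells held 56.3% and 96.8% of their control UMIs.

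C1q macrophages (808, 861 and 1328 cells) and Ly6c2 monocytes (29, 25 and 33 cells with at least 2 UMIs of Ly6c2 and 1 of Ccr2) of the same libraries gave the same measures in other myeloid cells. Fos in macrophages was at 868, 4591 and 2938 CPM, Egr1 at 223, 1670.4 and 786 CPM and Ier2 at 382, 1839 and 676 CPM, each highest at 15 min as in granulocytes. Il1r2 (91.1, 8.0 and 23.6 CPM), Il1rn (436, 54.9 and 322 CPM) and Nlrp3 (445, 125 and 386 CPM) were lowest at 15 min in macrophages too. The summed level of the interleukin-1 regulators list in macrophages was 0.251 times the control at 15 min, against 0.347 times in granulocytes. Chemokines in macrophages stood at 0.703 and 1.80 times the control.

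Ptgs2, Osm and Il1b separated the cell classes. Ptgs2 was at 192, 44.8 and 175 CPM in macrophages and at 297, 549.9 and 961 CPM in monocytes, so that the platform levels were above the control in granulocytes and monocytes and below it in macrophages. Osm was at 177, 206 and 273 CPM in macrophages against 62.2, 721 and 498 CPM in granulocytes. Il1b was at 5447, 3234 and 4981 CPM in macrophages, below the control in both intervals, and at 4333, 2937 and 8658 CPM in monocytes. These differences between classes have no replicate check and were not tested.

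**Figure D4:**
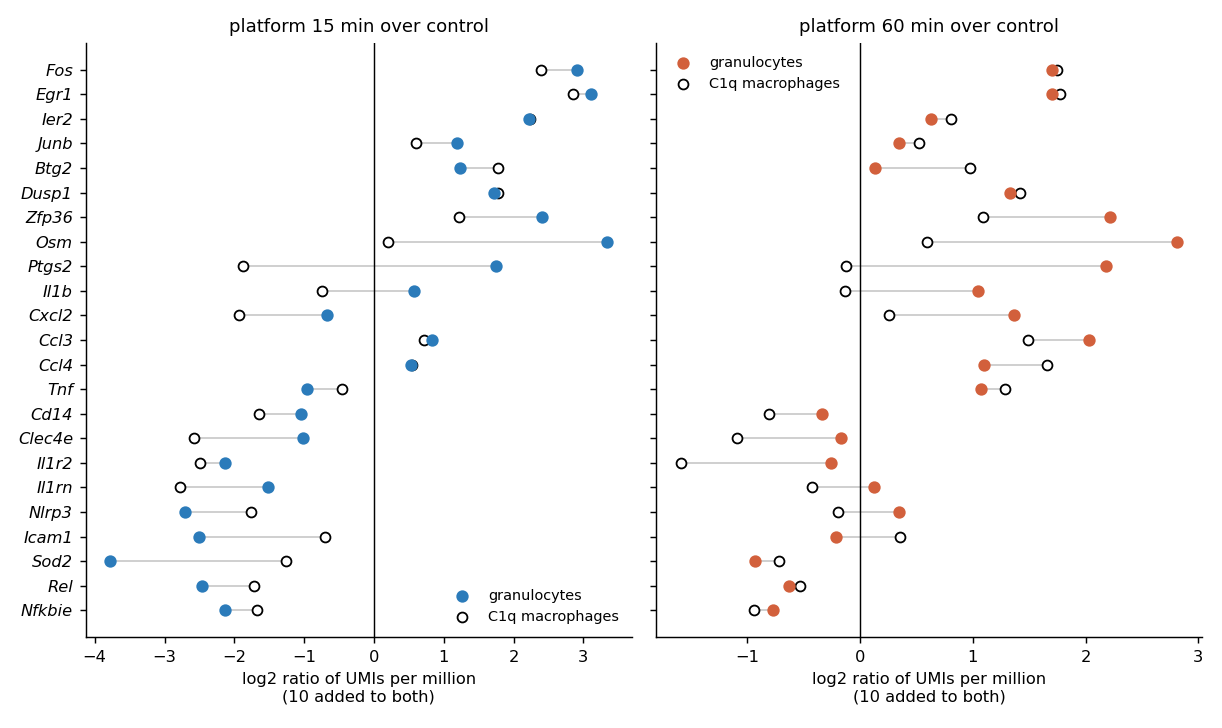
Points give the log2 ratio to the control of 23 genes, with 10 CPM added to both levels, in granulocytes (filled) and C1q macrophages (open) for the 15 min interval (left) and the 60 min interval (right). Fos, Egr1 and Ier2 lie to the right of 0 and Il1r2, Nlrp3, Sod2 and Nfkbie to the left of 0 in both classes at 15 min, and Ptgs2 (1.75 in granulocytes, -1.88 in macrophages) lies on opposite sides.

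Kidney granulocytes, at 86451, 18200 and 149092 UMIs, gave levels of the same genes in another tissue. Fos was at 1203 CPM in the kidney control, 13626 CPM in the 15 min interval (8 cells) and 1033 CPM in the 60 min interval. Il1r2 was at 2232, 275 and 1536 CPM, Acod1 at 2267, 275 and 1945 CPM, Zfp36 at 891, 4286 and 905 CPM, and Il1b at 6836, 19945 and 10631 CPM. In kidney too, the 15 min interval was the high library for Fos and Zfp36 and the low one for Il1r2 and Acod1. The low 15 min levels in kidney rest on few UMIs, 5 for Acod1. The chemokine list was at 12666, 5714 and 15755 CPM in kidney granulocytes, lowest at 15 min and highest at 60 min as in tumor, while Ccl3 alone was at 1446, 109.9 and 1147 CPM, with the control highest. Zfp36 at 60 min was close to its control in kidney and 4.71 times its control in tumor.

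Within each library the granulocytes were not uniform. Cells with a Retnlg UMI numbered 100, 34 and 26 and had a median depth of 2820, 2193 and 2580 UMIs, and cells without one numbered 140, 56 and 38 with 1800, 1587 and 1891.5 UMIs, so the split was partly a split by depth. In CPM, cells without Retnlg held more Ccl3 than cells with it in each library (2833 against 211 CPM in the control, 5309 against 105 at 15 min, 7959 against 3506 at 60 min). Tnf (1342 against 95.9, 575 against 133, 2220.0 against 567 CPM) and Ptgs2 (458 against 102, 1466 against 438, 1876 against 567 CPM) had the same order. Cells with Retnlg held more S100a6 (4276 against 1119.8 CPM in the control, 5736 against 434 at 15 min, 2419.9 against 477 at 60 min), Lcn2 (2802 against 924, 4307 against 565, 1617 against 422 CPM) and Wfdc21 (3048 against 379.5, 4231 against 434, 2668 against 211 CPM).

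Egr1, Nlrp3 and Klf2 were compared across conditions on both sides of this split. Egr1 in cells with Retnlg was at 95.9, 848 and 413 CPM and in cells without it at 252, 2280.0 and 710.4 CPM. Nlrp3 was at 639.6, 152 and 1428 CPM with Retnlg and at 1973, 217 and 1743 CPM without it. The 15 min interval was the highest library for Egr1 and the lowest for Nlrp3 in both subsets. Klf2 was highest at 15 min only in cells with Retnlg (416, 3059 and 626 CPM). In cells without Retnlg it was highest at 60 min (1086, 1390 and 1521 CPM). Clustering of the 394 members gave 6 groups, led by Il1a, Cxcl1 and Il23a (174 cells), by Ngp, Camp and Stfa3 (92 cells), by Rcan1, Ccl3 and Cited2 (53 cells), by Fos, Dusp1 and Zfand5 (52 cells), by Rsad2, Ifit1 and Cxcl10 (14 cells) and by Fabp4, Serpine2 and Gng11 (9 cells). Ngp was present in 14.1%, Camp in 5.43% and Stfa3 in 5.43% of the 92 cells they lead, so a few cells carry these names. The group of 9 was led by endothelial and stromal genes, with Gng11, Igfbp7, Sparc and Col4a1 in 100.0% of its cells, and it is not described as a kind of granulocyte. Genes that lead the groups differed between libraries, and the groups partly followed the libraries. The group led by Il1a held 136, 3 and 35 cells (control, 15 min and 60 min), and the group led by Fos 2, 46 and 4. The groups are a description, and the difference of their sizes between libraries was not tested.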

How the data were processed

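Mouse mammary tumor and kidney cells were profiled by 10x Chromium v3 scRNA-seq in 6 libraries, 1 per condition. The authors deposited UMI counts per gene and cell (31053 genes) in 1 aggregated matrix per tissue, made with Cell Ranger 3.1.0 on mm10, whose aggregation step evens the read depth of the libraries. The deposited counts were used as they are, and each cell's library was read from its barcode suffix. Cells were kept within 200 to 4000 genes and 25% mitochondrial UMIs (kidney, 200 to 3000 genes and 50%). Doublets were limited by the gene maximum and by the C1q, Epcam and Cd3g limits, and no doublet caller was run.

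UMIs were summed over the granulocytes of each library and divided by their total (CPM, UMIs per 1000000). With 1 library per condition no test between conditions was made. Shares have exact binomial and sums exact Poisson 95% intervals, which cover counting error only. Log2 ratios per gene used 10 CPM added to both levels, as did the size rule of past 2-fold among genes with at least 100 UMIs. Fold values and times the control, for genes and lists, are ratios of CPM with nothing added. Where a share of cells was compared, cells were also thinned to 1000 UMIs. Named genes are those of the gene lists by role, the 8 highest and 8 lowest ratios of each platform interval to control, the 20 genes leading granulocytes over other tumor cells and the 8 leading genes of each cluster. The members, gene lists and settings were chosen with earlier results of these data known. Only the calculation of the ratio of a gene and its interval was tested on simulated counts. Alternatives changed the S100 threshold, the cell limits, the identity genes, epithelial UMIs, the denominator, the scaling, the depth and the UMI minimum of a gene, and 4 more were added after seeing the data. Python 3.11.15, numpy 2.4.6, scipy 1.17.1, pandas 2.3.3, leidenalg 0.10.2, igraph 0.11.9 and matplotlib 3.10.9 were used.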

Additional observations from a re-analysis of the deposited data

Results flagged for a closer look

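A set of 5 results lay on opposite sides of the control in granulocytes and in C1q macrophages of the same libraries, each by at least 2-fold; the difference between the cell classes was not tested, since each condition has 1 library. Ptgs2 in the 15 min interval had a log2 ratio of 1.75 in granulocytes and -1.88 in macrophages. In the 60 min interval Rsad2 was at -4.70 in granulocytes and 1.32 in macrophages, Ifit1 at -4.46 and 1.48, Cxcl10 at -2.56 and 2.33, and Col1a1 at -2.23 and 1.08. The direction of Col1a1 in granulocytes turned under 6 other settings, among them 1.16 with at most 2 endothelial and fibroblast UMIs and 3.56 without limits on genes and mitochondrial share. For Rsad2, Ifit1, Cxcl10 and Col1a1, 3 cells held 62.0%, 71.3%, 58.7% and 96.0% of the granulocyte UMIs of the control.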

How the results depend on the processing

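Shares and counts were recomputed under other settings, of which 4 (at most 2 endothelial and fibroblast UMIs, at most 4 UMIs of Camp, Ngp and Ltf, and cells with and without a Retnlg UMI) were chosen after seeing the data. Where a value moved, the cause was not tested. No paired analysis was possible because each condition has 1 library and no value comes from a test. Of the recomputed share ratios, 38 stayed within their interval and 4 did not. The granulocyte share ratio was 0.497 (15 min) and 0.184 (60 min) with cells of at most 1 Epcam UMI as denominator, and 0.443 (60 min), or 0.361 among leukocytes, with at most 2 epithelial UMIs.

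At 15 min, against 196 genes past 2-fold (46 higher, 150 lower), there were 118 (26 and 92) with at most 2 epithelial UMIs, 95 (26 and 69) with cells thinned to 1000 UMIs, 449 (158 and 291) with genes of at least 30 UMIs, 74 (20 and 54) with at least 300, 122 in cells with no Retnlg UMI (91 lower) and 29 higher in cells with one. Against 3 gene lists past 2-fold there were 5 without limits on genes and mitochondrial share and 6 in cells with Retnlg. At 60 min, against 111 genes (57 and 54), there were 48 (24 and 24) thinned, 340 (165 and 175) with at least 30 UMIs, 44 (30 and 14) with at least 300, and 70 (26 higher) with at most 2 endothelial and fibroblast UMIs; 31 were higher with each cell at equal weight and 31 lower with at most 2 epithelial UMIs. Against 4 lists there were 2 with at most 2 epithelial UMIs, 2 at equal weight, 2 with at most 2 endothelial and fibroblast UMIs and 2 in cells with no Retnlg. The share of 2-fold genes that were higher was 23.5% at 15 min and 35.2% with at least 30 UMIs; at 60 min it was 51.4%, against 39.4% (S100 at least 10 UMIs), 64.8% (epithelial limit), 37.8% (equal weight), 68.2% (at least 300 UMIs) and 37.1% (endothelial and fibroblast limit).

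Directions turned as follows (log2 ratios). At 15 min, without cells of more than 4 Camp, Ngp and Ltf UMIs, the secondary granule list was -0.93, Camp -0.62 and Ngp -1.17; with no Retnlg, the list was -0.76, Camp -1.09 and Stfa3 0.60; with the endothelial and fibroblast limit Gng11 was 0.35 and Sparc 0.26; without cell limits S100a10 was 1.73. At 60 min, with the endothelial and fibroblast limit, Gng11 was -0.24, S100a10 -1.08, Tm4sf1 -1.10, Serpine2 0.56 and Col1a1 1.16; without cell limits Serpine2 was 2.02 and Col1a1 3.56; with no Retnlg Serpine2 was 1.69 and Col1a1 0.36; and Col1a1 was 0.083 with the epithelial limit, 0.0090 at equal weight and 0.26 thinned. Depth limits the precision in all 3 libraries, where 3 cells can hold most UMIs of a gene.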
